A study of Mus musculus with 2 samples.

Results

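The 39 genes described here are those whose products mark or serve microglia and the other macrophages of the brain, taken by gene symbol from a fixed list out of 55536 annotated genes. They were grouped by role into 12 homeostatic microglia genes, 3 genes for the CSF1 receptor and lineage regulators, 5 pan-macrophage genes, 3 innate sensors, 9 phagocytic and lysosomal genes, 4 perivascular macrophage genes and 3 niche ligands. The data are 2 total RNA libraries from the left cerebral cortex of female B6CASTF1/J mice aged 14 days, a cross of C57BL/6J with CAST/EiJ. Ribosomal RNA had been depleted, 300 ng of RNA entered each library, and ERCC spike-ins (synthetic RNAs of known amount) had been added. Both libraries belong to 1 group, so the design gives levels within this tissue and the difference between replicates 1 and 2. The number of mice behind each library is not known, since the description they share mentions 3 females and the tissue labels mention 3 females for replicate 1 and a numbered female for replicate 2.

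Microglia are the resident macrophages of the brain parenchyma. They survive through the receptor Csf1r, which is bound by the ligands Il34 and Csf1, and they keep their identity under TGF-beta signalling. At this age they prune synapses and clear dying cells, for which they use phagocytic receptors and lysosomal proteases. Perivascular macrophages are a separate population that lies along vessels outside the parenchyma. In a bulk tissue sample, fewer cells of a type and less RNA per cell cannot be told apart.

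Gene counts summed to 33.4M in replicate 1 and 32.0M in replicate 2, and spike-ins took 0.359% and 0.361% of the counts. Of the 39 genes, 36 were detected, meaning 1 TPM (transcripts per 1e6 transcripts, a level scaled for length) or more in both libraries. The exceptions were Tlr4, Lyve1 and Tlr2. The genes summed to 423 TPM in replicate 1 and 409 TPM in replicate 2, and their median level was 5.86 ± 0.106 TPM (SD, n = 2). Most stood low in this tissue: 7 of the 39 lay above 16.2 TPM, the median of the 12959 detected protein-coding genes. All 12 homeostatic genes were detected. Of markers of white blood cells, 0 of 10 for neutrophils and monocytes and 0 of 11 for lymphocytes and mast cells were detected. Erythroid markers, in contrast, were detected in 5 of 5 cases and summed to 846 and 1264 TPM in replicates 1 and 2. The neutrophil and monocyte markers summed to 2.49 and 2.62 TPM, with Ly6g and Elane at 0 in both libraries. One of them, S100a9, had 0.90 and 1.18 TPM, but 1.61 and 3.07 TPM in the second table, which is explained with the niche ligands. The lymphocyte and mast cell markers summed to 1.13 and 1.11 TPM, with Nkg7 and Ncr1 at 0.

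**Figure D1:**
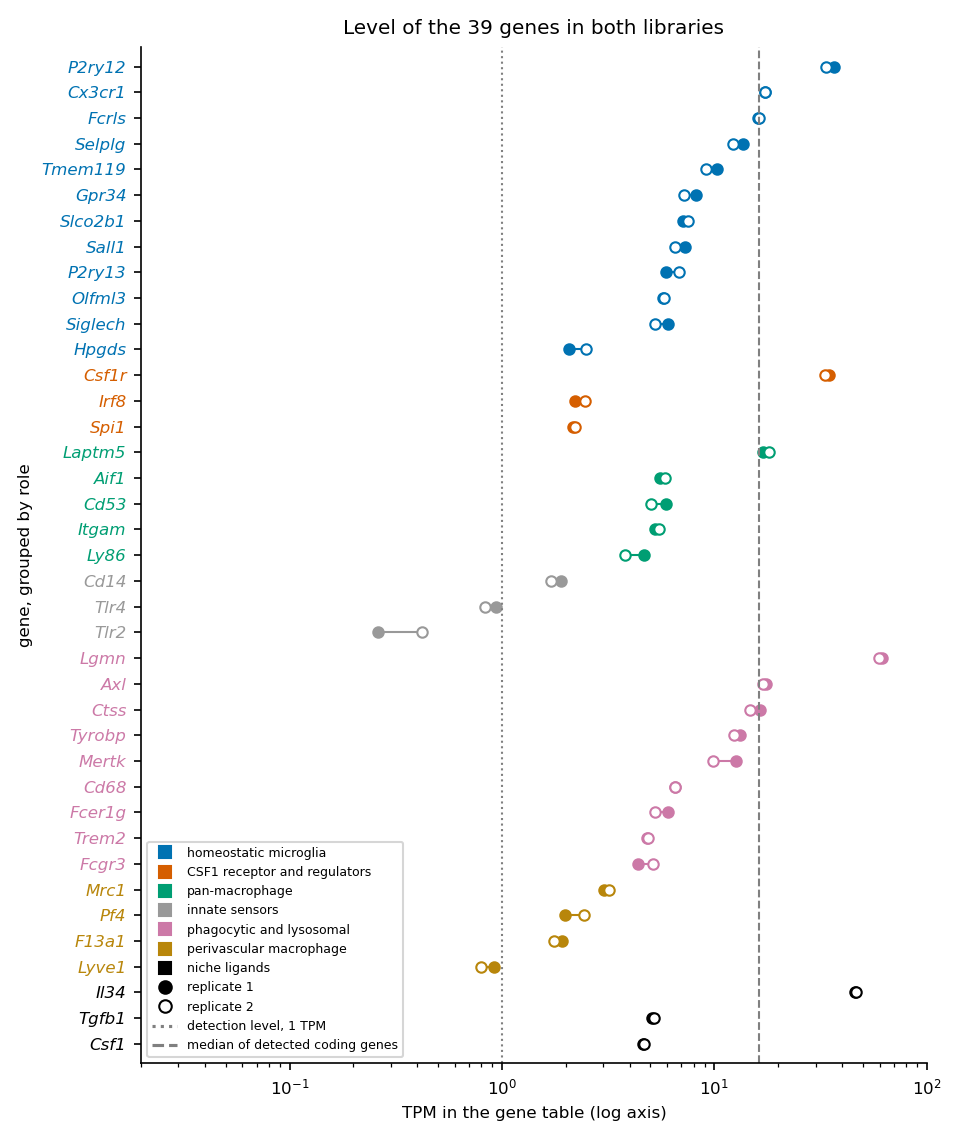
Level of each of the 39 genes in TPM on a log axis, grouped by role, with a filled point for replicate 1 and an open point for replicate 2. The dotted line marks 1 TPM and the dashed line 16.2 TPM, the median of detected coding genes. Lgmn, Il34, P2ry12 and Csf1r stand farthest to the right, and Tlr4, Lyve1 and Tlr2 lie left of the dotted line.

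Csf1r, the receptor tyrosine kinase on which microglia depend, had 34.54 TPM in replicate 1 and 33.08 in replicate 2. Only Lgmn, Il34 and P2ry12 had a higher mean level, and the range of P2ry12 overlapped that of Csf1r. In the second table Csf1r was above P2ry12 in both libraries (51.0 and 48.8 TPM against 42.6 and 41.7). The transcription factors that act in the macrophage lineage were far lower. Irf8 had 2.22 and 2.47 TPM, and Spi1, which encodes PU.1, had 2.15 and 2.21 TPM. Irf8 was above Spi1 in both libraries, by little. Exons of Csf1r share 873 bases, 15.1% of its exon bases, with Hmgxb3 on the opposite strand (18.97 and 20.11 TPM; singled out after its values were seen). Whether the counting used strand is unstated in the sources used here, so some reads of this pair cannot be told apart.

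PU.1 binds a purine-rich core, and the RefSeq promoter table (GRCm38.p6, the mm10 build) covers 29 of the 39 genes with windows from 250 bases before to 50 bases after a start. The core GAGGAA, searched on both strands, was present in 17 of these 29 genes (58.6%) and in 31.3% of the 27025 genes of the table. The longer form GAGGAAGT, which contains the core, was present in 6 of 29 genes (20.7%) and in 3.69% of all genes. The niche ligands in the table, Csf1 and Tgfb1, held neither form. A match describes letters in a window and is not evidence of binding. The longer form lay within 49 bases of the start used in that table in all 6 genes. The window ends 50 bases after the start, so for matches after it this closeness was fixed in advance. The 6 stretches are shown 5′ to 3′ along the strand that carries the motif, 30 bases each, with the motif in capitals.
Cd53: gcgagaagagtGAGGAAGTgagactgagtg
Ctss: gcatccacaatGAGGAAGTgaactttcatt
F13a1: cgagtccttttGAGGAAGTacccagaggca
Hpgds: gcttttaggtgGAGGAAGTggcctctggct
Pf4: ggatacaggatGAGGAAGTgctctgcagaa
Slco2b1: agtccatgaggGAGGAAGTgactcatcttc

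The Cd53 stretch is chr3:106790125-106790154 on the plus strand, opposite to the gene, with the motif over transcribed bases 7 to 14. That of Ctss is chr3:95526773-95526802 on the minus strand, opposite to the gene, and its motif runs across the start, from 2 bases before to base 6. In F13a1 (chr13:37049181-37049210, minus strand) the motif covers transcribed bases 15 to 22, and in Slco2b1 (chr7:99711316-99711345, minus strand) it covers bases 7 to 14, both on the strand of the gene. In Hpgds (chr6:65144761-65144790, minus strand, that of the gene) it lies 49 to 42 bases before the start used. In Pf4 (chr5:90772414-90772443, minus strand, opposite to the gene) it lies 10 to 3 bases before the start. For Hpgds the start used differs from the annotation behind the levels, where the gene begins at 65144908, so its motif lies inside the gene. In F13a1 the start used is that of the noncoding transcripts F13a1-203 and F13a1-205, at 37049213. Its coding transcripts F13a1-201 and F13a1-202 begin at 37049288 and 37050244. These 6 genes differ in role and level: Ctss had 15.6 TPM, Slco2b1 7.32, Cd53 5.47, and Hpgds, Pf4 and F13a1 between 1.84 and 2.29.

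The 12 homeostatic genes, which mark resting parenchymal microglia, ran from 35.0 to 2.29 TPM around a median of 7.55 ± 0.247 TPM (SD, n = 2). P2ry12, the ADP receptor that guides microglial processes, was the highest with 36.58 and 33.42 TPM. Cx3cr1, the fractalkine receptor, followed with 17.38 and 17.35 TPM, and Fcrls, an Fc receptor-like scavenger protein, with 16.05 and 16.24 TPM. The P2ry12 values were above those of Cx3cr1 in both libraries, and Cx3cr1 was above Fcrls in both. In the second table, which is explained with the niche ligands, the order of Cx3cr1 and Fcrls was the other way round in both libraries (24.7 and 25.0 TPM against 27.6 and 25.9).

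Selplg, a selectin ligand, had 13.60 and 12.27 TPM, and Tmem119, a membrane protein used as a microglia marker, had 10.30 and 9.17 TPM. Gpr34, a lysophosphatidylserine receptor, had 8.18 and 7.22 TPM, and Slco2b1, an organic anion transporter that brain endothelium also carries, had 7.10 and 7.53 TPM. Sall1, a transcription factor of microglial identity, had 7.27 and 6.50 TPM. The ranges of Gpr34, Slco2b1 and Sall1 overlapped from one to the next, so their order is not resolved with 2 libraries. The lower end held P2ry13 with 5.93 and 6.81 TPM, the secreted protein Olfml3 with 5.71 and 5.78 TPM, the lectin Siglech with 6.04 and 5.28 TPM, and the prostaglandin D synthase Hpgds with 2.08 and 2.50 TPM.

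P2ry12 and P2ry13 are related ADP receptors that lie 5.389 kb apart on chromosome 3, on the minus strand, at chr3:59216272-59262871 and chr3:59207892-59210882. P2ry12 exceeded its neighbour 6.17-fold in replicate 1 and 4.91-fold in replicate 2, a mean ratio of 5.54 ± 0.892 (SD, n = 2). Both lie inside Med12l on the opposite strand (12.79 and 15.63 TPM; singled out after its values were seen), with 9 shared exon bases for P2ry12 and 0 for P2ry13.

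Among the 5 pan-macrophage genes, Laptm5, a lysosomal membrane protein of blood cells, stood highest in both libraries with 16.99 and 18.10 TPM. Aif1, which encodes the actin-binding marker Iba1, had 5.55 and 5.84 TPM. The tetraspanin Cd53 had 5.93 and 5.01 TPM, the integrin Itgam (CD11b) had 5.27 and 5.51 TPM, and Ly86, the partner of the receptor RP105, had 4.69 and 3.79 TPM. The range of Cd53 overlapped those of Aif1 and Itgam. Aif1 was above Itgam in both libraries, but with coding transcripts alone it was below, with 2.75 and 2.26 TPM against 5.26 and 5.50. Coding transcripts alone in the second table gave 8.14 and 7.43 TPM for Aif1 against 7.40 and 7.93 for Itgam, so there the order differed between the libraries. Itgam shares 68.7% of its exon bases with the annotated gene Gm49368 on the same strand, which received 0 and 0.04 TPM.

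The innate sensors were the lowest group. Cd14, the co-receptor for lipopolysaccharide, had 1.89 and 1.70 TPM. Tlr4, the lipopolysaccharide receptor, had 0.94 and 0.83 TPM from 67 and 59 counts. Tlr2, the receptor for bacterial lipopeptides, had 0.26 and 0.42 TPM from 16 and 25 counts. All 3 lay below every homeostatic gene in both libraries, and Tlr2 was the lowest of the 39 genes. This did not hold for Cd14 in other quantifications: it was above Hpgds in replicate 1 of the second table, with 2.87 against 2.68 TPM, and with coding transcripts alone its 1.67 and 1.70 TPM were above Hpgds and Olfml3 in both libraries.

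The 9 phagocytic and lysosomal genes centred on a median level of 11.3 ± 1.97 TPM (SD, n = 2). Lgmn, the asparaginyl endopeptidase of lysosomes, was the highest of the 39 genes with 61.51 and 59.87 TPM, above 85.5% of detected coding genes. Ctss, the cysteine protease cathepsin S, had 16.36 and 14.80 TPM, so that Lgmn exceeded it 3.76-fold and 4.05-fold. Cd68, a lysosomal glycoprotein, had 6.50 and 6.54 TPM.

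Axl and Mertk are TAM receptor kinases for apoptotic cells. Axl had 17.48 and 16.99 TPM, and Mertk, which astrocytes also carry, had 12.64 and 9.86 TPM. Axl was above Mertk 1.38-fold in replicate 1 and 1.72-fold in replicate 2. The third TAM receptor, Tyro3, which is abundant on neurons, stood above both with 65.3 and 56.4 TPM. The bridging ligand Gas6 had 58.2 and 59.8 TPM and the other bridging ligand, Pros1, had 4.13 and 4.87 TPM.

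Trem2, a lipid receptor, signals through the adaptor Tyrobp (DAP12). Tyrobp had 13.15 and 12.35 TPM against 4.83 and 4.86 TPM for Trem2, a ratio of 2.72 and 2.54. Fcer1g, the adaptor of Fc receptors, had 6.08 and 5.25 TPM, and Fcgr3, a low-affinity IgG receptor, had 4.39 and 5.13 TPM. Both adaptors were thus above the receptors named with them in both libraries. The counts of Fcgr3 were not whole (113.53 and 129.73), as happens where an estimation splits reads between features, so its level is less certain.

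The 4 perivascular macrophage genes were low, with a median level of 2.02 ± 0.110 TPM (SD, n = 2). Mrc1, the mannose receptor, had 3.01 and 3.20 TPM, the chemokine Pf4 had 1.98 and 2.44 TPM from 17 and 19 counts, and the transglutaminase subunit F13a1 had 1.91 and 1.76 TPM. Lyve1, a hyaluronan receptor that lymphatic endothelium also carries, had 0.92 and 0.80 TPM from 55 and 46 counts. All 4 were below every homeostatic gene except Hpgds in both libraries, but with coding transcripts alone Mrc1, F13a1 and Pf4 were above Olfml3, which then had 0.88 and 1.21 TPM. Csf1r, which both populations carry, exceeded Mrc1 11.5-fold in replicate 1 and 10.3-fold in replicate 2, and P2ry12 exceeded it 12.2-fold and 10.4-fold. Of 12 other genes of border macrophages, 5 were detected, with Stab1 at 11.7 TPM and Maf at 10.8 TPM the highest. Neither is restricted to macrophages: Stab1 is also a gene of sinusoidal endothelium, and Maf is also a gene of cortical interneurons.

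Among the niche ligands, Il34, the CSF1R ligand that neurons make, was the second highest of the 39 genes with 45.83 and 46.55 TPM. Csf1, the other CSF1R ligand, had 4.60 and 4.67 TPM, and Tgfb1 had 5.08 and 5.18 TPM. The sum over all annotated transcripts of Il34 therefore exceeded that of Csf1 9.96-fold in replicate 1 and 9.97-fold in replicate 2. Csf1 and Tgfb1 are not ordered with the same certainty. Csf1 was lower than Tgfb1 in both libraries in the gene tables, with ratios of 0.906 and 0.902, but 1.11 and 0.965 times as high in the authors' second transcript table, which was made from the reads without that alignment.

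The Il34 total depended on a noncoding transcript. Il34-205 is annotated as a processed transcript of 675 bases with 2 exons, chr8:110741829-110742698 on the minus strand, and all but 11 of its bases lie within coding transcripts of Il34. It held 22.59 and 21.45 TPM, against 21.49 and 22.87 TPM for the main coding transcript Il34-201. In counts it received 279 and 254, against 743 and 757 for Il34-201. Its share of the gene's TPM was 47.7% ± 2.27 (SD, n = 2) in the alignment-based table and 39.7% in the second table. With coding transcripts alone, Il34 had 22.76 and 24.11 TPM and exceeded Csf1 5.17-fold and 5.48-fold. On that basis Il34 was below Csf1r, at 0.667 and 0.735 of its level, whereas the sum over all transcripts put it at 1.33 and 1.41. The short transcript overlaps the last exons, so reads from them can be assigned to either form and the split rests on the estimation.

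**Figure D2:**
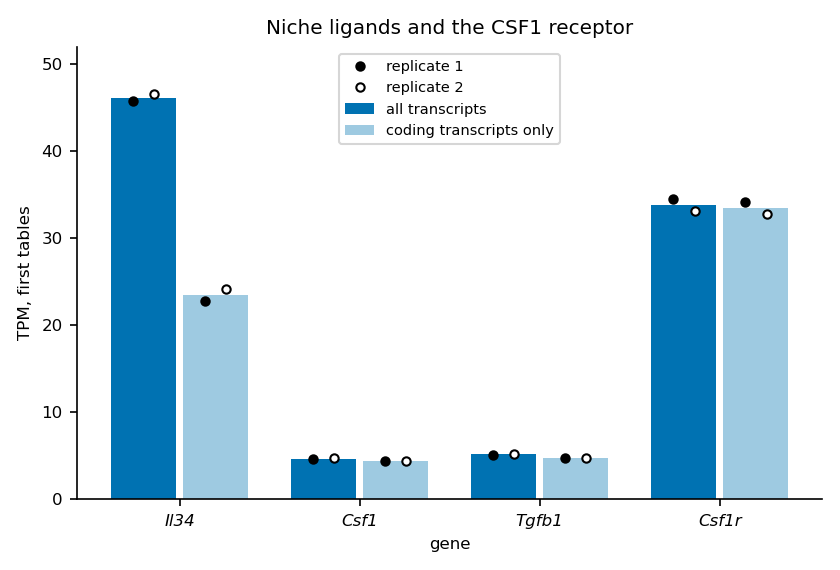
Level in TPM of the ligands Il34, Csf1 and Tgfb1 and of the receptor Csf1r, as the sum over all transcripts (dark bars) and over coding transcripts alone (light bars). Bars are means of 2 libraries and points are the libraries. The light bar of Il34 is lower than its dark bar, while the bars of the other 3 genes nearly match.

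Genes of the TGF-beta and CSF1R pathways that are not among the 39 were mostly detected, 17 of 18. Tgfbr1 had 9.69 and 7.95 TPM and Tgfbr2, the other receptor chain, had 6.50 and 6.46 TPM. Nrros, which presents latent Tgfb1 on microglia, had 4.06 and 4.01 TPM. The highest of the list were Mef2c at 419 TPM, Grb2 at 88.1 TPM and Mef2a at 58.8 TPM, all of which neurons also express. Between the libraries, 6 of these 18 genes were called lower in replicate 2 and 1 higher, by the test described with the members' differences. Of all tested genes 11.4% were called lower and 8.88% higher. Genes with more counts were called more often: between 3000 and 10000 summed counts it was 35.0% of all genes. Mef2c, one of those called lower, had 32167 and 29816 counts. The median log2 ratio of the 18 genes was -0.08.

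The 39 genes have 157 annotated transcripts, and 4 genes have only 1. Of the other 35, the transcript with the most TPM was the same in both libraries for 30 genes, and the same in both libraries and both kinds of table for 25. For Csf1r it was Csf1r-201, with 85.2% and 86.2% of the gene's TPM. For P2ry12 the tables differ in which coding transcript leads: P2ry12-202 held 67.0% ± 0.146 (SD, n = 2) in the alignment-based table, and P2ry12-201 held 75.7% in the second. The leading transcript also changed between tables for Gpr34, Itgam and Lgmn, the second table gave both transcripts of Ctss equal values, and the leader differed between libraries for Aif1, F13a1, Hpgds, Il34 and Siglech, so no single isoform is given for these.

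Coding transcripts held under 80% of the TPM in 7 of the 39 genes. The lowest share was that of Olfml3, in which coding transcripts held 15.4% and 20.97%. Its retained-intron transcript Olfml3-202, of 3981 bases, held 403 and 364 of the 504 and 498 counts of the gene, and 81.8% ± 3.95 (SD, n = 2) of its TPM. The second table gave it 90.3%. All but 584 of the bases of Olfml3-202 (85.3%) lie within coding transcripts of the gene, so this split too rests on the estimation. Olfml3 had 0.88 and 1.21 TPM when its coding transcripts alone were summed. Trem2 also had a retained-intron transcript, Trem2-203, of 4784 bases, with 45.33 and 41.37 of 138 and 131 counts. Because that transcript is long, it made up 9.08% ± 0.332 (SD, n = 2) of the Trem2 TPM.

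In 6 of the 7 genes under 80%, all but Hpgds, the shares of coding transcripts in the alignment-based and second tables did not overlap. In Olfml3 the second table gave the lower share, and in Aif1, Axl, Cd68, Il34 and Pf4 the higher one. In Cd68 it was 72.5% and 70.2% in the alignment-based table and 100% in both libraries of the second. In Aif1 it was 49.5% and 38.7% against 95.6% and 71.0%. The noncoding transcripts Cd68-203 and Aif1-205 lie wholly within coding transcripts, so their reads can be assigned to either form. In Hpgds all 4 values lay between 41.2% and 70.2%, and in Il34 between 49.7% and 57.6%. With coding transcripts alone, 35 of the 39 genes were detected in place of 36. Olfml3, whose split rests on the estimation, was the gene that was lost.

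**Figure D3:**
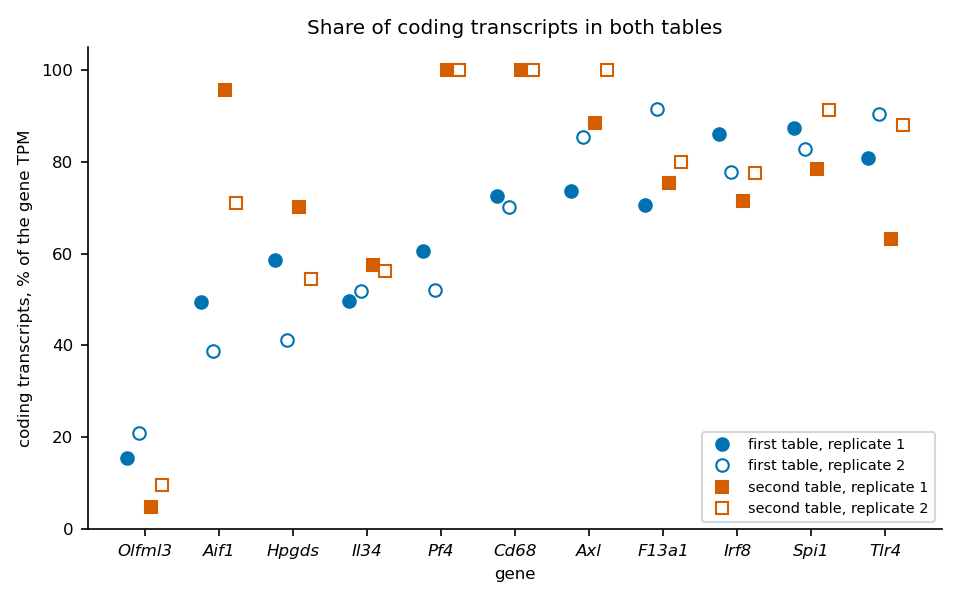
Share of a gene's TPM held by its coding transcripts, for the 11 genes in which the mean was below 90% in the alignment-based table. Circles are the alignment-based table and squares the second table, filled for replicate 1 and open for replicate 2. Olfml3 lies lowest in all 4 values, and for Pf4 and Cd68 the squares stand at 100%.

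All 39 genes entered the test of the difference between the libraries, a two-sided exact binomial test on the counts with TMM (trimmed mean of M-values) scaling and Benjamini-Hochberg adjustment over 18887 genes, called at an adjusted p under 0.05. It takes counting error alone and does not speak for other mice. Of the 39 genes, 5 were called lower in replicate 2 (12.8%), beside 11.4% of all tested genes, and 0 were called higher, beside 8.88%. In either direction 20.3% of all tested genes were called. The share called lower was thus near the background.

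Mertk had 1121 and 852 counts in replicates 1 and 2. Its log2 ratio of -0.39 ± 0.07 (counting SE) had an adjusted p of 3.86e-08 in the exact binomial test. It was the largest difference among the genes called. Csf1r, with 2717 and 2441 counts, had a log2 ratio of -0.15 ± 0.04 (adjusted p = 0.00136, exact binomial test). P2ry12 had 1323 and 1181 counts and a log2 ratio of -0.16 ± 0.06 (adjusted p = 0.0276, exact binomial test). Sall1 had 806 and 690 counts and a log2 ratio of -0.22 ± 0.07 (adjusted p = 0.0185, exact binomial test), and Selplg had 489 and 406 counts and a log2 ratio of -0.26 ± 0.10 (adjusted p = 0.0335, exact binomial test). These are 3 homeostatic genes, the growth factor receptor and a phagocytic receptor. Genes with more counts were called more often in the whole table: between 1000 and 3000 summed counts 20.7% of all genes and 3 of 11 members were called, and between 100 and 300 counts 11.5% of all genes and 0 of 14 members.

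The median log2 ratio was -0.08 over the 39 genes and 0.00 over all tested genes, and 31 of the 39 were negative (79.5%, against 48.7% of all genes). Other microglia and myeloid genes did not share this: of 25, 11 were negative and 14 positive, with a median of 0.01. Neuron markers were negative in 9 of 10 cases and astrocyte markers in 6 of 8. Within the 39 genes the medians by role were -0.08 for homeostatic genes, -0.15 for the receptor and regulators, -0.12 for pan-macrophage genes, -0.10 for innate sensors and -0.10 for phagocytic and lysosomal genes. Perivascular macrophage genes had a median of 0.05, with Mrc1 at 0.04, Pf4 at 0.08, F13a1 at 0.06 and Lyve1 at -0.19, none of them called. The niche ligands were at -0.01 for Il34 and -0.06 for both Csf1 and Tgfb1, and their median of -0.06 was 7.64e-05 with total-count scaling. The signs of the other role medians were the same with total-count, spike-in and DESeq2 scaling. Outside the 5 genes called, the counting SE ran up to 0.48, for Pf4.

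The calls depended on the scaling and on the error assumed. Scaled by total counts or by spike-ins, only Mertk was called, and among all genes 1145 were then lower and 2733 higher with total counts, against 2152 lower and 1678 higher with TMM. In the edgeR exact test with an assumed dispersion of 0.01, which called 0.964% of all genes, 0 of the 39 were called and 0 had an unadjusted p under 0.05.

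**Figure D4:**
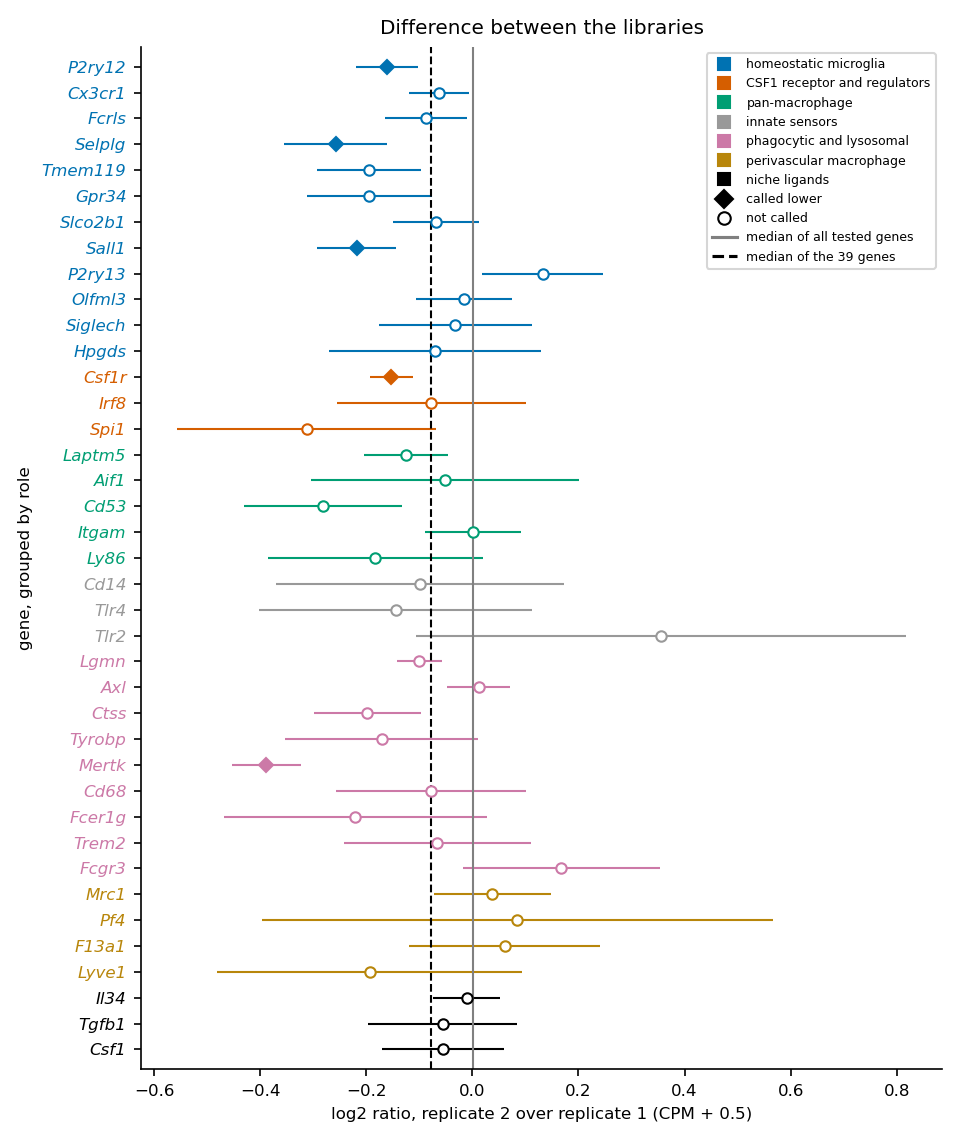
Log2 ratio of replicate 2 over replicate 1 for each of the 39 genes, with bars of 1 counting SE, taken from the counts without the added 0.5 CPM. Diamonds are the 5 genes called lower and open circles the others. The dashed line at -0.08 is the median of the 39 genes and the grey line that of all tested genes. Mertk lies farthest to the left, and the bars of the low genes Pf4 and Tlr2 are the widest.

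Markers of other cell types also moved between these libraries. All 8 myelinating oligodendrocyte markers were called lower in replicate 2, with a median log2 ratio of -0.90 and summed levels of 2363 and 1322 TPM. Astrocyte markers were called lower in 6 of 8 cases and higher in 1, with a median of -0.18. Neuron markers were called lower in 7 of 10 cases, with a median of -0.12. Of all tested genes 11.4% were called lower and 8.88% higher, but between 3000 and 10000 summed counts 35.0% were called. Many astrocyte and neuron markers had more counts, such as Slc1a2 with 214644 and 185953, so small differences can be called there. All 8 choroid plexus markers were called higher, and they summed to 14.1 and 142 TPM. All 5 erythroid markers were called higher, with a median of 0.47, and of 8 fibroblast markers of the meninges and vessels 4 were called higher and 1 lower, with a median of 0.27. Endothelial markers were called higher in 2 of 8 cases and lower in 1. Of 4 lymphatic endothelial markers 3 were detected and 0 called. Prox1 had 5.53 and 5.88 TPM, Pdpn 5.46 and 6.01 TPM and Flt4 1.61 and 1.51 TPM, while Ccl21a was at 0 in both libraries. Bulk levels do not tell which cells carried these transcripts, so they do not show that lymphatic endothelium was present. The part of these other cell types in the differences of Mertk and the other 4 genes was not tested.

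**Figure D5:**
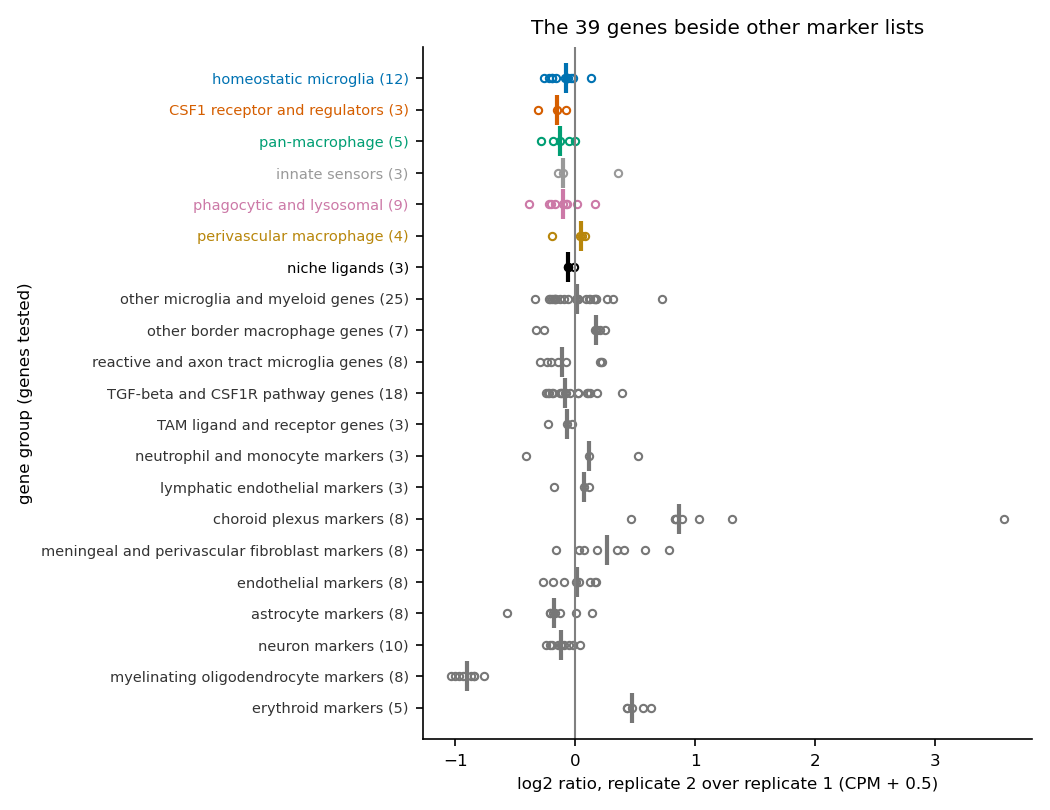
Log2 ratio of replicate 2 over replicate 1 for the 39 genes by role (coloured) and for other lists of markers and pathway genes (grey). Circles are tested genes, upright bars are list medians and the number of tested genes stands in brackets. Myelinating oligodendrocyte markers lie to the left around -0.90 and choroid plexus markers to the right, while the groups of the 39 genes lie close to the line of all tested genes.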

How the data were processed

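Total RNA of 2 libraries of 1 group was measured. The authors deposited expected counts and TPM per gene and transcript, quantified from reads aligned to the transcriptome, and another transcript table of estimated counts and TPM, here the second table, made without that alignment, on mm10 with GENCODE M21, per the file headers and the text deposited with the samples. TPM were scaled by the authors over all rows, spike-ins included. Tools and strand settings are unstated in the sources used here, as is whether B6CASTF1/J reads were aligned to more than mm10. The members and lists were chosen with earlier results of these data known. All 39 members are named. Of other genes, partners or ligands of members are named, and the 3 highest of a list from 10 TPM, except for 1 gene that is not reported here. Other names, such as markers at 0 and overlapping genes, were chosen after their values were seen.

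Counts were rounded. Genes reaching 10 counts in 1 library or both were tested with an exact binomial test (scipy 1.17.1, edgeR 4.0.16 TMM sizes, expected share 0.500 of replicate 2). The test was checked on data simulated with counting error alone, so the check does not cover further variation between libraries. Log2 ratios are of counts per 1e6 gene counts (CPM) plus 0.5, which understates the change of low genes. Their SEs cover counting error only and were taken from the counts without that addition. For low genes they are therefore wider than the counting error of the ratio printed. With 2 libraries an exact permutation test cannot go below p = 0.5. Neighbours in the order of levels were called apart only where the ranges of the libraries did not overlap, which held for 14 of 38 pairs. Alternatives were other scalings (total, spike-in, DESeq2 1.42.0 size factors), count minimums of 1 and 50, pseudocounts of 0.1 and 2, a dispersion of 0.01, the second table, other detection levels, and coding transcripts only, the last chosen after seeing the data. Protein sequences were not analysed here.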

Additional observations from a re-analysis of the deposited data

How the results depend on the processing

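Of the 39 genes, 5 were called lower in replicate 2, 1 with scaling by total counts, 1 with spike-in scaling and 0 in the edgeR exact test with a dispersion of 0.01. The count was 5 with DESeq2 size factors, both other count minimums, both other pseudocounts and the second table, and 0 genes were called higher under any setting. In the second table Selplg was not called (adjusted p = 0.258, exact binomial test) and Lgmn was (adjusted p = 0.0130). The 5 genes called kept their negative sign under all 9 alternatives. Uncalled genes that changed sign were Il34 (0.0466 with total counts, 0.0400 with spike-ins), Olfml3 (0.0409 and 0.0344), Siglech (0.0220 and 0.0157, and 0.0265 in the second table), Csf1 (7.64e-05 with total counts), and, in the second table, Axl (-0.0303), Itgam (-0.0298) and Mrc1 (-0.0165). The cause was not tested. Total-count scaling moved the median of all genes to 0.06. The members' median ran from -0.11 in the second table to -0.03 with total counts.

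Between 25 (5 TPM) and 38 genes (0.5 TPM, or the second table) were detected. Without either replicate it was 36. The ratio of Il34 to Csf1 was 10.6 in the second table, 5.33 with coding transcripts and 6.26 with both; leaving out a replicate gave 9.96 to 9.97. Il34 to Tgfb1 was 9.004, then 10.9, 4.96 and 6.70, with 8.99 to 9.02 on leaving out a replicate. Csf1 to Tgfb1 was 0.904, then 1.04, 0.932 and 1.08, with 0.902 to 0.906. TPM in the second table was 1.48 times as high in the median of the members and 1.49 times in detected coding genes. Of the members, 30 had 100 counts or more in both libraries, and depth limits Pf4 and Tlr2 most. No paired analysis was possible because there is 1 group.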

Other observations

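Genes of reactive and axon tract microglia, a state of early postnatal white matter, covered a wide range of levels. Apoe had 974 and 965 TPM, Ctsb 197 and 179 TPM and Ctsd 151 and 144 TPM, all 3 being genes that other brain cells express too. Of the 14 genes of the list 7 were detected. Chosen after their values were seen, Cd9 had 34.6 and 29.2 TPM, Lpl 20.8 and 18.2 TPM, Igf1 6.76 and 8.28 TPM and Spp1 2.91 and 3.57 TPM, and Itgax had 0.02 and 0.11 TPM, Clec7a 0.06 and 0.09 TPM, and Ccl4 was at 0 in both libraries. Between the libraries 8 of the 14 had enough counts to be tested, and 5 of these were called lower and 1 higher (exact binomial test). Among all tested genes 11.4% were called lower and 8.88% higher. Genes with many counts, such as Apoe with 21386 and 20234, are called more often. Of 25 further microglia and myeloid genes 21 were detected, with Cst3 at 1032 TPM and Rgs10 at 22.5 TPM among the highest, and 4 were called lower and 1 higher, with a median log2 ratio of 0.01.

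Apart from P2ry12 and P2ry13, other pairs of the 39 genes lie near each other in mm10. Tmem119 and Selplg lie 18.0 kb apart on chromosome 5 with 0 coding genes between them, and had 9.74 ± 0.799 and 12.9 ± 0.940 TPM (SD, n = 2). Tgfb1 and Axl lie 52.2 kb apart on chromosome 7 with 2 coding genes between, and had 5.13 ± 0.0707 and 17.2 ± 0.346 TPM (SD, n = 2). F13a1 and Ly86 lie 295 kb apart on chromosome 13 with 0 coding genes between, and had 1.84 ± 0.106 and 4.24 ± 0.636 TPM (SD, n = 2). Fcgr3 and Fcer1g, a receptor and its adaptor, lie 165 kb apart on chromosome 1 with 7 coding genes between. These are positions and levels only.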
